A study of Mus musculus with 5 samples.

Results

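The genes described here are 10 members of the BCL2 family, taken by symbol from the 23478 genes of the count table. They are the survival genes Bcl2, Bcl2l1 and Mcl1, the effector genes Bax and Bak1, and the BH3-only genes Bcl2l11, Bbc3, Pmaip1, Bad and Bid. All 10 passed the filter on low counts and were among the 15298 genes tested. Proteins of this family decide whether the outer membrane of the mitochondrion stays closed. BAX and BAK open it and release cytochrome c, BCL2, BCL-XL (Bcl2l1) and MCL1 hold them in check, and BH3-only proteins such as BIM (Bcl2l11), PUMA (Bbc3) and NOXA (Pmaip1) bind the survival proteins and free the effectors. IGF1 receptor signaling is known as a survival signal, since AKT phosphorylates BAD and keeps FOXO factors, which can activate Bcl2l11 and Bbc3, out of the nucleus.

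RNA-Seq libraries were made from GFP-positive cells sorted from mouse lungs on P6. The 2 control libraries came from mice with 1 floxed and 1 wildtype Igf1r allele, and the 3 Igf1r-deleted libraries from mice with both alleles floxed. All mice carried Gli1creER and a Rosa-EGFP reporter and received 100 µg of tamoxifen on P0 and on P1, so the control cells also express Cre and can lose 1 copy of Igf1r. The driver acts mainly in lung fibroblasts, both sexes on a mixed background were used, and the number of pups behind a library is not given in the sources used here. Nothing in those sources says that the libraries of a group came from separate animals, so the p-values measure only the spread between these libraries. Values are given below in the order control replicates 1 and 2, then Igf1r-deleted replicates 1, 2 and 3, as counts scaled to a common library size (CPM) unless a unit is named.

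Library totals ran from 35116766 to 37597857 counts. Igf1r itself was at 324, 324, 140, 177 and 194 CPM, with a log2 fold change of -0.93 ± 0.14 (SE) and an unadjusted edgeR p of 0.000301. All 3 Igf1r-deleted libraries lay below both control libraries, as their labels give, although the adjusted p was 0.354. Summed over 10 fibroblast markers, the libraries held 33015 to 41587 CPM, against 433 to 966 CPM for 10 epithelial, 251 to 709 CPM for 8 endothelial and 209 to 572 CPM for 9 leukocyte markers. Of 5 erythroid markers, 3 had no count in any library and only 1 was tested, so they say little about red cells.

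The feature that joins the family is the BH3 motif, a short helix through which its proteins bind each other. Its core can be written as leucine, 3 residues of any kind, then glycine, alanine or serine, then aspartate, and a search of the GENCODE M21 coding sequences found it in all 10 members. The pattern is loose, since 33.6% of 21899 protein-coding genes held a match somewhere. It also does not mark the whole family. No match was found in its genes Bcl2l2, Bcl2l10, Bcl2l12, Bcl2l13, Bcl2a1a, Bcl2a1b, Bcl2a1c and Bcl2a1d. Pmaip1 matched at 2 places and the other 9 members at 1. The stretches shown are examples from each class, with Mcl1 as the survival gene that differed most, and Bbc3 and Bad as the members whose core departs from the common form. They give the coding strand on mm10, lie inside a coding exon, and carry the 18 bases of the core in capitals.
Bcl2, chr1:106712569-106712616, minus strand: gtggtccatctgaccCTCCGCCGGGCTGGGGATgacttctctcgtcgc
Mcl1, chr3:95659421-95659468, plus strand: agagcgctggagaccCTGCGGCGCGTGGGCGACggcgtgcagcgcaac
Bax, chr7:45465991-45466038, minus strand: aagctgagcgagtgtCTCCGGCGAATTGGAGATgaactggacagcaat
Bcl2l11, chr2:128147135-128147182, plus strand: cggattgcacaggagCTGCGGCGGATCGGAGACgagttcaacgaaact
Bbc3, chr7:16313758-16313805, plus strand: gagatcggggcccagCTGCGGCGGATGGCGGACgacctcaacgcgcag
Bad, chr19:6950777-6950824, plus strand: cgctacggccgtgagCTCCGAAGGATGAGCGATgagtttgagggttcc
The fifth residue of the core is glycine in 8 of the members. It is alanine in Bbc3 and serine in Bad.

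Mcl1 was by far the most abundant of the 10 transcripts once length was taken into account. Its mean over the 5 libraries was 134 RPKM, which is CPM per kb of exon, and it lay above every other member in every library. Bak1 (18.7 RPKM), Bax (18.2) and Bcl2l1 (15.5) followed, and the libraries' ranges of neighbours in that order overlapped. Bcl2l11 (11.9 RPKM), Bad (11.4) and Bcl2 (10.8) formed a lower tier that again overlapped. Bbc3 stood apart below them at 6.39 RPKM. Pmaip1 at 1.46 RPKM and Bid at 0.689 RPKM were the lowest, with ranges that overlapped each other. The order in the middle depends on which exons are counted, because with GENCODE's basic transcripts alone Bax came to 33.2 RPKM while Bak1 was at 18.8 RPKM and Bcl2l1 at 18.2 RPKM.

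**Figure D1:**
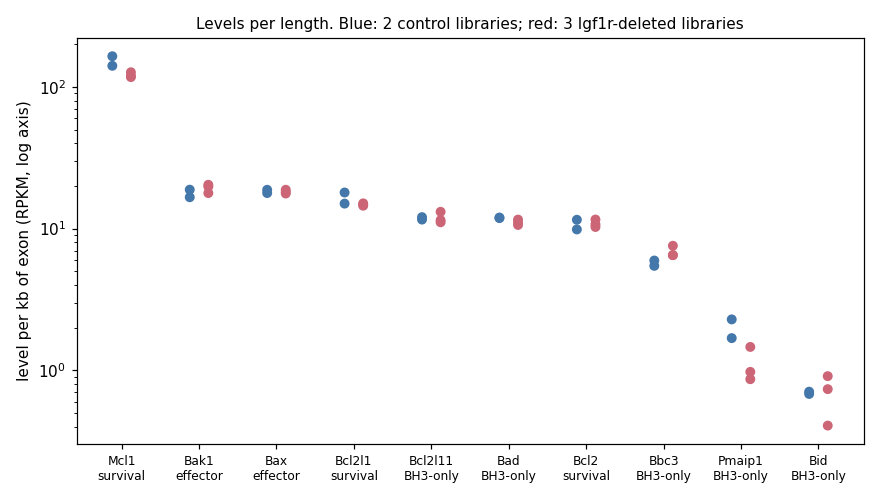
Level of each member per kb of exon (RPKM, log axis) in each library, ordered by the mean over 5 libraries; blue points are the 2 control libraries and red points the 3 Igf1r-deleted libraries. Mcl1 (mean 134 RPKM) lies above all other members in all libraries, and Pmaip1 and Bid (1.46 and 0.689 RPKM) lie lowest.

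Among the survival genes, Mcl1 was lower in every Igf1r-deleted library, while Bcl2 and Bcl2l1 overlapped between the groups. None of the 3 passed the adjusted test. In bulk RNA, fewer cells of a type and less RNA per cell cannot be told apart, which holds for every difference below.

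Mcl1, whose short-lived product is needed for the survival of many cell types, was at 562, 481, 433, 400 and 409 CPM. The control mean was 522 CPM and the Igf1r-deleted mean 414 CPM, a difference of -20.6%. The log2 fold change was -0.33 ± 0.11 (SE; 95% interval -0.60 to -0.07), with an unadjusted p of 0.0201 and an adjusted p of 0.354 in edgeR. The groups did not overlap, but control replicate 2 lay closer to the Igf1r-deleted libraries than control replicate 1 did. Without control replicate 1 the log2 fold change was -0.22 with an unadjusted edgeR p of 0.128, and without control replicate 2 it was -0.45.

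Bcl2, the founding survival gene of the family, was at 106, 90.3, 98.2, 94.0 and 106 CPM. The highest and the lowest control library enclosed nearly the whole Igf1r-deleted range. It had a log2 fold change of 0.02 ± 0.11 (SE; 95% interval -0.24 to 0.28, adjusted p = 0.950). Bcl2l1, which encodes the long-lived survival protein BCL-XL, was at 82.4, 68.8, 67.6, 69.1 and 66.5 CPM. Only control replicate 1 stood above the other 4 libraries. Its log2 fold change of -0.16 ± 0.11 (SE; 95% interval -0.41 to 0.09, adjusted p = 0.553) became -0.03 without that library and -0.29 without control replicate 2.

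**Figure D2:**
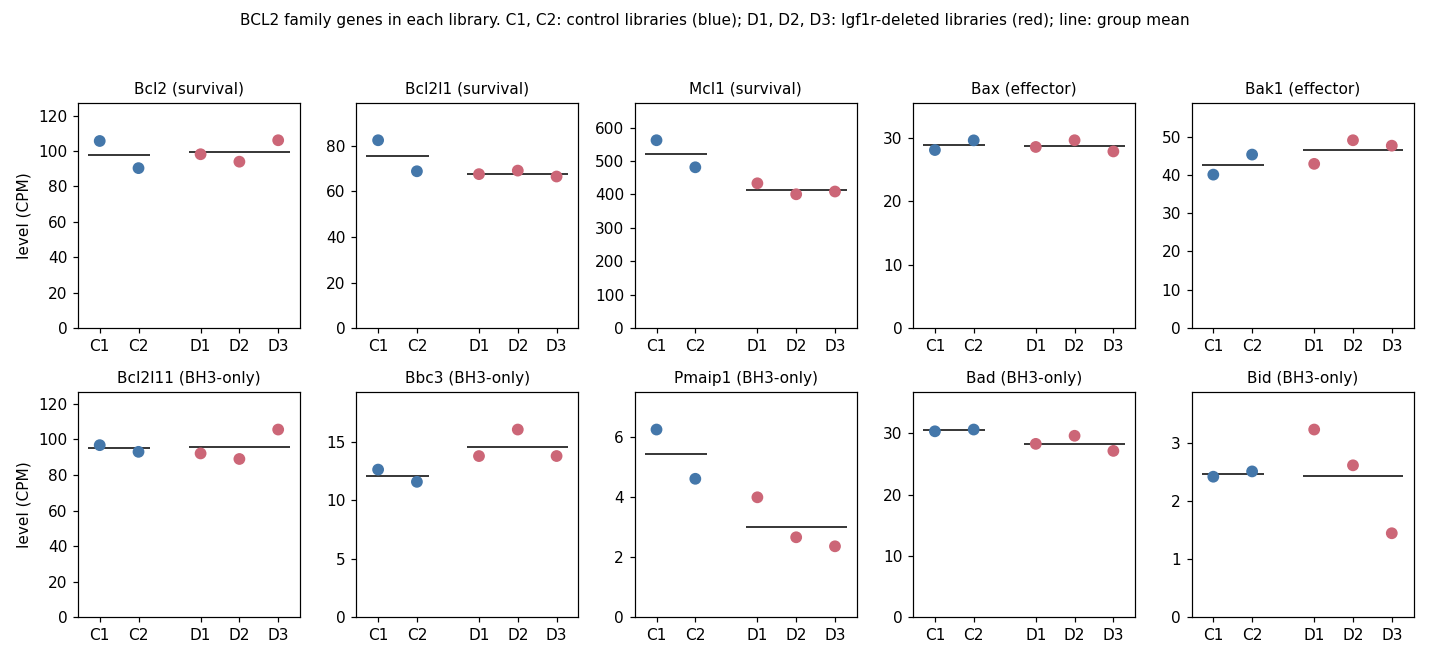
Level (CPM, axes from 0) of the 10 members in each library; C1 and C2 are control replicates 1 and 2, D1 to D3 are Igf1r-deleted replicates 1 to 3, and lines mark group means. Mcl1, Pmaip1 and Bad are lower and Bbc3 is higher in all 3 Igf1r-deleted libraries, and the groups of the other 6 members overlap.

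The effector genes differed little. Bax was at 28.1, 29.6, 28.6, 29.6 and 27.9 CPM, the narrowest range of the 10 members. The log2 fold change was -0.01 ± 0.10 (SE; 95% interval -0.23 to 0.22, adjusted p = 0.979). Bak1 was at 40.1, 45.3, 42.9, 49.0 and 47.6 CPM. The lowest value was control replicate 1, and control replicate 2 lay within the Igf1r-deleted range. Between the groups Bak1 had a log2 fold change of 0.12 ± 0.11 (SE; 95% interval -0.13 to 0.38, adjusted p = 0.653), which became 0.03 when control replicate 1 was left out and 0.21 when control replicate 2 was. Of the exon length of Bak1, 25.5% overlaps Ggnbp1 on the opposite strand, and 12.2% of that of Bax overlaps Gm45808 on the same strand. The use of strand in counting is not given in the sources used here, so reads from these stretches are uncertain.

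The 5 BH3-only genes did not move as a group. Pmaip1 was lower and Bbc3 higher in every Igf1r-deleted library, Bad was slightly lower, and Bcl2l11 and Bid overlapped. Again no member passed the adjusted test.

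Pmaip1, a p53 target whose product NOXA binds mainly MCL1, was at 6.25, 4.61, 4.0, 2.67 and 2.37 CPM, from 217, 169, 141, 106 and 85 counts. Its log2 fold change of -0.85 ± 0.30 (SE; 95% interval -1.55 to -0.16) was the largest among the members, with an unadjusted p of 0.0228 and an adjusted p of 0.360 in edgeR. The groups did not overlap, and Igf1r-deleted replicate 1 lay nearest to the controls. Leaving out control replicate 1 gave -0.62, and leaving out Igf1r-deleted replicate 1 gave -1.11. Pmaip1 was also the only member past 0.5 in absolute log2 fold change with an unadjusted edgeR p under 0.05. Both limits were passed by 6.26% of all genes tested. The study used these limits with p-values from DESeq and added a limit on level (FPKM), which was not applied here.

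Bbc3, which encodes PUMA, a target of p53 and of FOXO factors, was at 12.6, 11.6, 13.8, 16.1 and 13.8 CPM. Each Igf1r-deleted library exceeded both control libraries. The log2 fold change was 0.26 ± 0.14 (SE; 95% interval -0.07 to 0.60), with an unadjusted p of 0.0999 and an adjusted p of 0.466 in edgeR. It stayed between 0.18 and 0.32 when any library was left out.

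Bcl2l11, the gene of BIM, was at 96.7, 92.96, 92.1, 88.9 and 105 CPM. The Igf1r-deleted libraries held both the lowest and the highest value. BIM transcripts had a log2 fold change of 0.01 ± 0.11 (SE; 95% interval -0.24 to 0.26, adjusted p = 0.977). Bad was at 30.3, 30.6, 28.3, 29.6 and 27.1 CPM, a separation of the groups that was small against the spread the model allows. For Bad the log2 fold change was -0.10 ± 0.10 (SE; 95% interval -0.33 to 0.12, adjusted p = 0.667). Bid, whose product links death receptors to the mitochondrion, was at 2.42, 2.51, 3.23, 2.62 and 1.45 CPM. The 3 Igf1r-deleted libraries lay on both sides of the controls, and the log2 fold change was -0.02 with a wide 95% interval of -0.89 to 0.86 (adjusted p = 0.987). Of the exon length of Bad, 20.5% overlaps Gpr137, and 17.7% of that of Bid overlaps Bcl2l13, both on the opposite strand.

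Bcl2l11 and Bbc3 are textbook FOXO targets, so the promoters were searched for the FOXO core GTAAACA on either strand. RefSeq windows (GRCm38.p6) from 250 bases before to 50 after a start were at hand for 9 members, with 15 windows in all. A match stood in 2 of the 15 windows, 1 of Bcl2l11 and 1 of Bbc3, and in 3.65% of all 32851 windows. The letters TGACGTCA (a cAMP response element, in 1.79% of all windows), TTCNNNGAA (a STAT site, in 8.30%) and the full glucocorticoid response element palindrome (in 0.0091%) stood in none of the members' windows. The stretches of 60 bases that hold the FOXO core, in capitals, are on the plus strand. That of Bcl2l11 lies before the annotated start of the gene, and that of Bbc3 inside the annotated span of the gene.
Bcl2l11, chr2:128125791-128125850, core 227 bases before the start: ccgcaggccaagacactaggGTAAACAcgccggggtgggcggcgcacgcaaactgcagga
Bbc3, chr7:16310074-16310133, core 167 bases before the start: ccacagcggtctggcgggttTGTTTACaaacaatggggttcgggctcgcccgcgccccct
The transcripts of these genes, the only members with the letters, had log2 fold changes of 0.01 (Bcl2l11) and 0.26 (Bbc3). A match of letters describes the sequence and shows no binding. The Pmaip1 promoter was not searched.

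Counted together, 0 of the 10 members had an adjusted p under 0.05 in edgeR, as was true of all genes tested (0.0% called), and 0 did in DESeq2, which called 1.3% of all genes. At an unadjusted edgeR p under 0.05 there were 2 members, Mcl1 and Pmaip1, both lower, against 12.4% of all genes (6.75% lower and 5.65% higher). The groups did not overlap for 4 members, 3 lower and 1 higher, against 31.0% of all genes (14.9% lower and 16.0% higher). These shares are near the background. The median log2 fold change was -0.01 over the members and 0.01 over all genes tested. The count of 2 rests on single libraries, since it was 0 when control replicate 1 or Igf1r-deleted replicate 2 or 3 was left out, and 3 when control replicate 2 was, when Bcl2l1 joined.

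**Figure D3:**
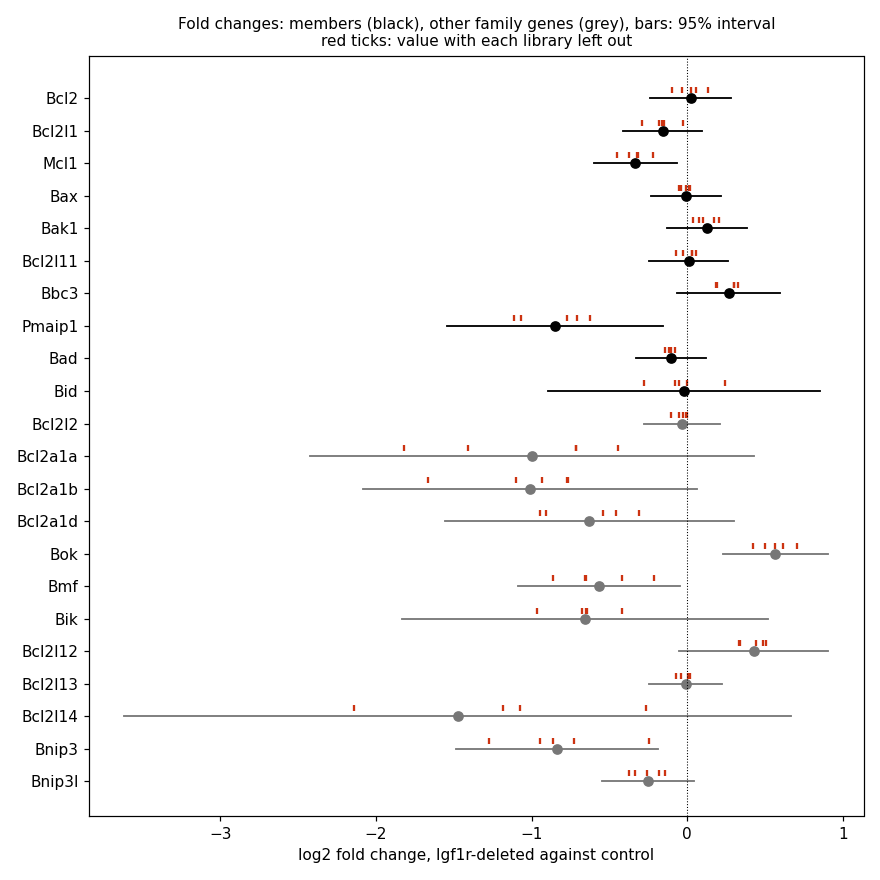
Log2 fold change, Igf1r-deleted against control, of the 10 members (black) and of 12 other tested BCL2 family genes (grey), with 95% intervals from edgeR; red ticks give the value with each library left out in turn. Mcl1 and Pmaip1 are the members whose intervals lie below 0, and Bok, Bmf and Bnip3 are the other genes whose intervals do not reach 0.

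The balance of survival to death genes was read within each library, as the ratio of levels per length, which does not depend on scaling between libraries. The size of a ratio does depend on the exon length used, while the log2 difference between the groups does not. Bax, for example, came to 18.2 RPKM with all exons and 33.2 RPKM with basic transcripts alone. Mcl1 to Bak1, the pair that MCL1 restrains, was 9.88, 7.48, 7.12, 5.75 and 6.04. All Igf1r-deleted libraries lay below the controls, and the group means differed by -0.45 on the log2 scale, with a pooled SD of 0.21. Leaving out control replicate 1 brought this difference to -0.25, and leaving out control replicate 2 to -0.65. Mcl1 to Bcl2l11 was 13.7, 12.2, 11.1, 10.6 and 9.10, a log2 difference of -0.34 with a pooled SD of 0.14, again without overlap. Bcl2 to Bax was 0.648, 0.525, 0.592, 0.546 and 0.655, with a log2 difference of 0.03 (pooled SD 0.16) and groups that overlapped. The ratio of Bcl2l1 to Bax overlapped as well, with a log2 difference of -0.15 (pooled SD 0.14). Mcl1 to Pmaip1, a ratio chosen after the values were seen, went the other way at 71.9, 83.4, 86.7, 120 and 138, a log2 difference of 0.54 (pooled SD 0.29). The ratios whose groups did not overlap all contain Mcl1, whose own groups did not overlap. Bak1 and Bcl2l11 overlapped between the groups, so the lower ratios mostly restate the difference in Mcl1. Among single genes, the groups did not overlap for 31.0% of all genes tested. The ratios are given as values with no test, and with 2 libraries against 3 an exact permutation test could not give a p below 0.1.

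Summed per length, the survival genes made up 74.2%, 70.6%, 69.3%, 66.7% and 67.9% of the members' RPKM, and most of that was Mcl1. The effectors made up 13.2%, 16.03%, 16.4%, 18.3% and 17.5%, and the BH3-only genes 12.6%, 13.4%, 14.3%, 14.9% and 14.7%. The survival share was thus highest in control replicate 1, and control replicate 2 lay within 2 percentage points of Igf1r-deleted replicate 1. In summed levels the survival genes went from 194 and 166 RPKM in the controls to 152, 142 and 146 RPKM, while the BH3-only genes stayed between 31.4 and 32.8 RPKM in all 5 libraries. The effectors summed to 34.5, 37.6, 35.9, 39.2 and 37.5 RPKM, and the groups overlapped. The shares also depend on the exon length used.

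**Figure D4:**
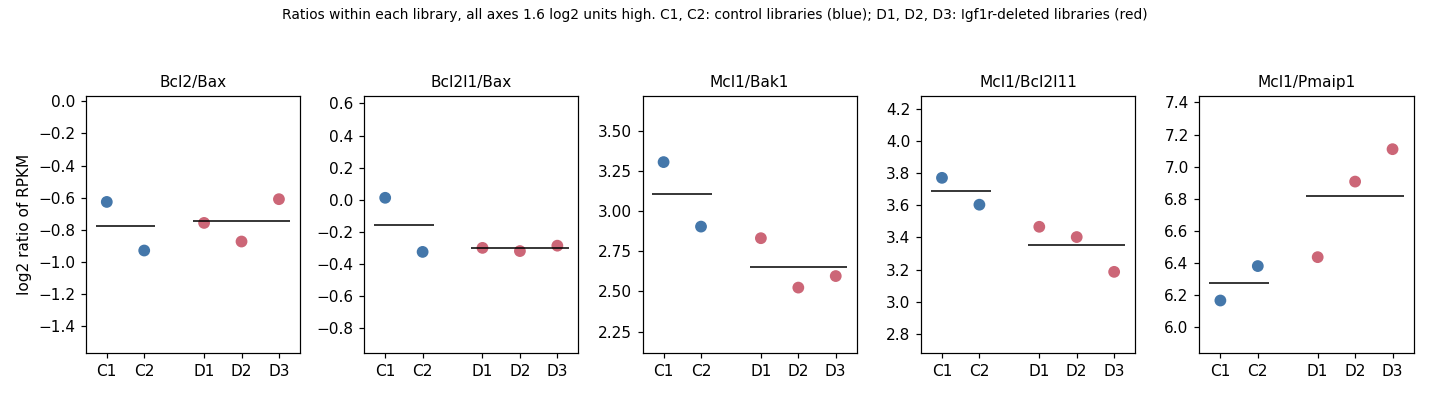
Log2 ratio of levels per length for 5 survival to death pairs in each library, with lines at group means and every axis 1.6 log2 units high. The ratios of Mcl1 to Bak1 and to Bcl2l11 are lower, and that to Pmaip1 higher, in all Igf1r-deleted libraries, while Bcl2/Bax and Bcl2l1/Bax overlap.

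Of 16 further BCL2 family genes, 12 were tested. None of the 12 had an adjusted p under 0.05. Their log2 fold changes were below 0 for 10 and above 0 for 2, with a median of -0.60, against 0.01 over all genes tested. Without overlap between the groups, 4 were lower and 2 higher, against 14.9% and 16.0% of all genes tested. An unadjusted edgeR p under 0.05 was found for 3, against 12.4% of all genes tested. That count became 6 when Igf1r-deleted replicate 1 was left out. Bok, an effector-like relative of Bax and Bak1, was at 12.2, 14.8, 19.8, 21.7 and 18.5 CPM, and every Igf1r-deleted library lay above the controls. Its log2 fold change was 0.57 ± 0.14 (SE), with an unadjusted p of 0.0052 and an adjusted p of 0.354 in edgeR, and it lay between 0.42 and 0.71 with any library left out. Bmf, a BH3-only gene that is a FOXO target in some cells, was at 176, 113, 75.7, 109 and 108 CPM. Control replicate 1 set much of that difference, because the log2 fold change of -0.57 ± 0.22 (SE; unadjusted p = 0.0371, adjusted p = 0.390, edgeR) was -0.22 without it and -0.86 without control replicate 2. Bnip3, a hypoxia-induced mitophagy gene, was at 57.4, 28.3, 27.2, 20.04 and 24.7 CPM, where control replicate 2 was close to the other 3. The log2 fold change of -0.84 ± 0.28 (SE; unadjusted p = 0.0184, adjusted p = 0.354, edgeR) became -0.25 when control replicate 1 was left out and -1.27 when control replicate 2 was, and 56.5% of its 32-base sequences also occur in other genes.

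Among the rest, the survival gene Bcl2l2 was at 81.6, 83.2, 77.1, 76.3 and 88.1 CPM, and its log2 fold change was -0.03 (95% interval -0.28 to 0.21). Bcl2l13, at 67.8, 70.4, 73.9, 66.2 and 65.6 CPM, had a log2 fold change of -0.01. Both overlapped between the groups. The mitophagy receptor gene Bnip3l had a log2 fold change of -0.25 (adjusted p = 0.445; -0.14 without control replicate 1) and Bcl2l12 one of 0.43 (adjusted p = 0.434). Bik and Bcl2l14 were under 1 CPM in every library. The survival genes Bcl2a1a, Bcl2a1b and Bcl2a1d, known from leukocytes, had log2 fold changes of -1.0, -1.01 and -0.63 with adjusted p-values of 0.512, 0.413 and 0.522. Single libraries moved these values, since Bcl2a1a was at -0.45 and Bcl2a1d at -0.31 without control replicate 1, and Bcl2a1a was at -1.82, Bcl2a1b at -1.67 and Bcl2a1d at -0.94 without Igf1r-deleted replicate 1. They share 78.9% to 88.6% of their 32-base sequences with other genes, mostly with each other, so their separate counts are uncertain. The 9 leukocyte markers summed to 572, 400, 466, 339 and 209 CPM over the libraries. All 9 had log2 fold changes below 0, with a median of -0.69. For 3 of them the unadjusted edgeR p was under 0.05, and 6.75% of all genes tested were lower with such a p. The part of leukocytes in the Bcl2a1 levels was not tested. Bcl2l10 had no count, and Bcl2a1c, Hrk and Bcl2l15 did not pass the filter.

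The steps after the mitochondrion are carried by Apaf1, cytochrome c and the caspases, and held by inhibitors such as Xiap. Of 27 caspase and death receptor genes, 3 had an unadjusted edgeR p under 0.05, 2 lower and 1 higher, against 12.4% of all genes. The list's median log2 fold change was -0.02. The death receptor gene Fas was at 12.8, 11.8, 9.44, 9.51 and 9.13 CPM (log2 fold change -0.39, adjusted p = 0.364), and its partner kinase gene Ripk1 had a log2 fold change of -0.42 (adjusted p = 0.364). Fadd, the adaptor between receptor and caspase, was at 16.2, 16.4, 21.9, 19.2 and 19.8 CPM (log2 fold change 0.32, adjusted p = 0.376). The groups of all 3, which were taken by smallest p, did not overlap, against 31.0% of all genes tested. Over the list, 6 genes were lower and 5 higher without overlap. Parp1, a caspase substrate, had the next smallest p, with a log2 fold change of 0.26, which became 0.11 when control replicate 1 was left out and 0.42 when control replicate 2 was. The count of 3 was 0 when control replicate 1 or Igf1r-deleted replicate 3 was left out, and 1 when Igf1r-deleted replicate 2 was.

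Of 21 p53 genes and targets, 7 had an unadjusted edgeR p under 0.05, 5 lower and 2 higher, against 12.4% of all genes. The list's median log2 fold change was -0.09. The cell cycle inhibitor gene Cdkn1a was at 130, 84.4, 78.7, 61.3 and 66.0 CPM, with a log2 fold change of -0.64 ± 0.19 (SE; adjusted p = 0.354). Btg2 (log2 fold change -0.49) and Sesn1 (-0.70) were lower as well. Control replicate 1 carried much of these differences, because without it Cdkn1a was at -0.30 and Sesn1 at -0.20 on the log2 scale, against -0.93 and -1.08 without control replicate 2. Trp53 itself was at 27.8, 30.04, 33.3, 38.1 and 38.5 CPM, with a log2 fold change of 0.34 ± 0.11 (SE; adjusted p = 0.354). The transcript of p53 was thus higher in all Igf1r-deleted libraries, while Pmaip1 and Cdkn1a were lower and Bbc3 was higher. Over the list, 7 genes were lower and 3 higher without overlap, against 14.9% and 16.0% of all genes tested. The activity of p53 was not tested. When control replicate 1 was left out none of the 21 had an unadjusted p under 0.05, and 3 had one when Igf1r-deleted replicate 2 was. DESeq2 called 1 gene of the list, Btg2 (adjusted p = 0.0447).

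The IGF survival pathway that leads to the members held 27 genes. Of these, 8 had an unadjusted edgeR p under 0.05, 6 lower and 2 higher, against 12.4% of all genes. The list's median log2 fold change was -0.04. Irs2, an adaptor of the insulin and IGF receptors, was at 585, 387, 297, 245 and 276 CPM, with a log2 fold change of -0.83 ± 0.18 (SE; adjusted p = 0.354). Pik3r1, the regulatory subunit gene of PI3 kinase, was at 409, 277, 206, 191 and 199 CPM, with a log2 fold change of -0.79 ± 0.16 (SE; adjusted p = 0.354). Foxo3, a factor that AKT keeps out of the nucleus, was at 192, 125, 101, 91.7 and 95.7 CPM, with a log2 fold change of -0.72 ± 0.17 (SE; adjusted p = 0.354). The insulin receptor gene Insr had one of -0.38. The groups did not overlap for any of these 4, which were taken by smallest p, against 31.0% of all genes tested. Over the list, 7 genes were lower and 5 higher without overlap. Among the 4, control replicate 1 was the highest library each time. Without that library the log2 fold changes were -0.51 (Irs2), -0.49 (Pik3r1), -0.38 (Foxo3) and -0.23 (Insr). DESeq2 called 3 genes of the list, Pik3r1 (adjusted p = 0.00301), Irs2 (0.00441) and Foxo3 (0.0220). Leaving out control replicate 1 left 3 of the 27 with an unadjusted edgeR p under 0.05, and leaving out any of the Igf1r-deleted libraries left 5.

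Of 23 genes for proteins that bind or turn over the members, 4 had an unadjusted edgeR p under 0.05, against 12.4% of all genes. Of the 4, 2 were lower and 2 higher, and the list's median log2 fold change was 0.02. Fbxw7, a ubiquitin ligase subunit that can mark MCL1 for degradation, was at 15.1, 17.2, 18.1, 21.6 and 26.0 CPM, with a log2 fold change of 0.44 (adjusted p = 0.384). Dynll2, whose product tethers BMF, had a log2 fold change of 0.27. Itpr3, the calcium channel gene, and Bag3, a co-chaperone gene, had log2 fold changes of -0.47 and -0.39. Leaving out control replicate 1 brought Dynll2 to 0.14 and Itpr3 to -0.30. This count was 0 when control replicate 1 was left out, and 1 when Igf1r-deleted replicate 2 or 3 was. Of 14 tested transcription factor genes known to act on members, 4 had an unadjusted edgeR p under 0.05. All 4 were lower, against 6.75% of all genes, and the list's median log2 fold change was -0.23. They were Klf9 (log2 fold change -1.29), Myc (-0.92), Fos (-0.44) and Atf4 (-0.27), of which DESeq2 called Klf9 (adjusted p = 0.000139). Klf9 is also counted in the glucocorticoid response list below, and Fos in the dissociation response list. The transcription factor list was chosen with earlier results of these data known, and its alternative settings were added after seeing the data. Its share beside that of all genes is a description only. Myc was at 60.1, 35.7, 32.4, 20.9 and 22.7 CPM, so that control replicate 1 again stood highest. Without it the log2 fold changes were -0.50 (Myc), -0.80 (Klf9) and -0.27 (Fos). This count was 2 when control replicate 1 or Igf1r-deleted replicate 2 or 3 was left out.

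**Figure D5:**
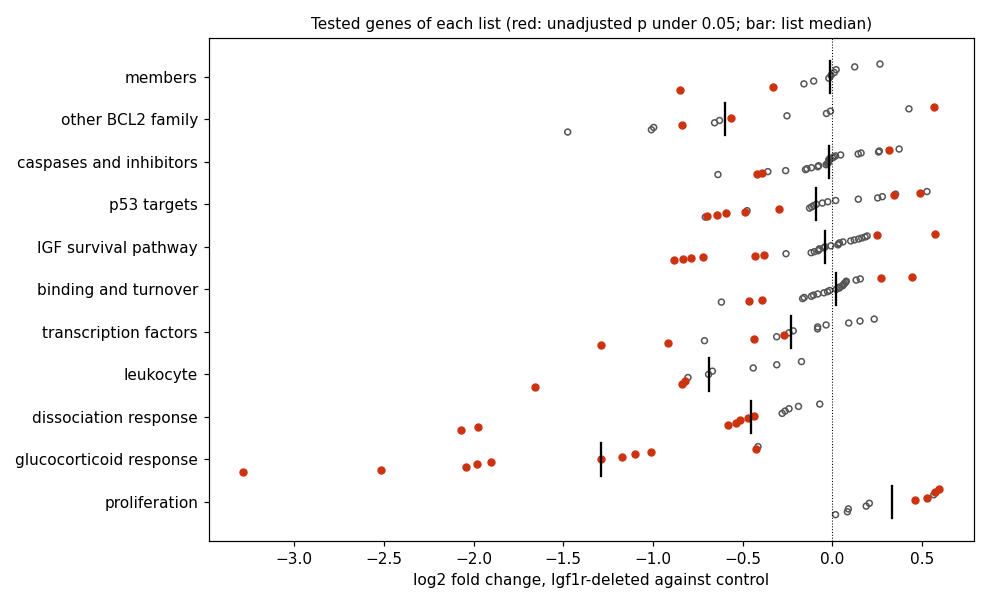
Log2 fold change of each tested gene of the members, of 6 related lists and of 4 marker lists; filled red points have an unadjusted edgeR p under 0.05, open points do not, and bars mark list medians. The members (median -0.01) and the caspase list (median -0.02) sit around 0. The genes of the glucocorticoid response, dissociation response and leukocyte lists all lie below 0, and those of the proliferation list all lie above 0.

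Some response genes also differed between the groups. Of 11 glucocorticoid response genes, 10 had an unadjusted edgeR p under 0.05, all lower, against 6.75% of all genes. The list summed to 2990, 1600, 1167, 910 and 1044 CPM. Of 12 dissociation response genes, 7 had such a p, all lower, with sums of 24018, 20606, 15813, 15135 and 17639 CPM. In both sums, as in Mcl1 and Pmaip1, control replicate 1 was the highest library and the 3 Igf1r-deleted libraries the lowest. Among the Igf1r-deleted libraries, the dissociation sum was highest in replicate 3, where Pmaip1 was lowest. Of all genes tested, 14.9% were lower without overlap. Of 10 proliferation genes, 4 had an unadjusted edgeR p under 0.05, all higher, against 5.65% of all genes. The list summed to 221, 221, 318, 337 and 236 CPM. The part of these responses in the members' levels was not tested.

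Over the 5 libraries, the genes whose log2 levels followed a member most closely were found by the Euclidean distance between profiles centred on each gene's mean. For Mcl1 they were Mcee (distance 0.015), Dtx4 (0.025) and Sqstm1 (0.049), against a median distance of 0.612 over all genes tested. Sqstm1, which encodes an autophagy receptor, was at 684, 560, 508, 473 and 482 CPM. For Bcl2 they were Lrrc28 (0.021), Jkamp (0.030) and Mdm2 (0.039), against a median of 0.461. Those nearest to Bcl2l11 were Coq10a (0.034), BC003331 (0.051) and Terf2 (0.052), against a median of 0.447. With 5 libraries and 15298 genes, close profiles are a description only.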

How the data were processed

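GFP-positive lung cells sorted on P6 were measured in 2 control and 3 Igf1r-deleted libraries, grouped by the sample labels. The authors made libraries with a NEBNext Ultra kit, used Trim Galore for trimming, Bowtie2 for alignment to mm10 and GenomicAlignments for counting per gene, and deposited raw counts without normalization. Annotation, strand use and handling of multi-mapping reads are not given in the sources used here. The members and gene lists were chosen with earlier results of these data known.

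Counts were tested with the quasi-likelihood F test of edgeR 4.0.16 (R 4.3.3), two-sided, with TMM factors (0.961 to 1.06), filterByExpr by group, a model of genotype alone and Benjamini-Hochberg adjusted p-values over 15298 genes. CPM used TMM-scaled totals, and RPKM divided CPM by the merged exon length of GENCODE M21. Intervals of 95% used the model's degrees of freedom. Distances between profiles used log2 CPM with a prior count of 2. Library totals were 35116766 to 37597857 counts.

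All members and all 16 other family genes were to be named, and from every other list the 4 genes with the smallest unadjusted p; genes of the response lists are given as sums. Alternatives were DESeq2 1.42.0 (Wald test), its size factors or library totals, looser and stricter count filters, limma 3.58.1 voom, a replicate block, and leaving out each library.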

Additional observations from a re-analysis of the deposited data

How the results depend on the processing

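No member passed an adjusted p of 0.05 under any alternative run; the lowest adjusted p was 0.114 for Mcl1 and 0.175 for Pmaip1, both in DESeq2, among the fits of all 5 libraries, and 0.116 (Pmaip1) with a library left out. Mcl1, Pmaip1, Bbc3, Bcl2l1, Bak1 and Bad kept their direction throughout. Over all genes tested, calls with an adjusted p under 0.05 went from 0 to 199 in DESeq2 and 136 with the replicate block, and were 0 to 45 with a library left out, where those with an unadjusted p under 0.05 were 433 to 3183. Counts with an unadjusted p under 0.05 with a library left out were 0 to 3 for members, 1 to 6 for other family genes (5 with the replicate block), 0 to 4 for caspases, 0 to 7 for p53 targets, 3 to 7 for the IGF pathway, 0 to 4 for binding and turnover and 2 to 4 for transcription factors. The cause was not tested.

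The shared replicate numbers are not stated to pair libraries, and there are 2 pairs, so the block is given only here. Correlations of deviations were 0.208 for the libraries numbered 1 and 0.121 for those numbered 2, but also 0.119 for control replicate 2 with Igf1r-deleted replicate 3, which share no number; with 2 controls, whose deviations mirror each other, these values do not show pairing. With the block 2 members had an unadjusted p under 0.05.

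Library totals moved the members' median log2 fold change to 0.057. Values near 0 changed sign. Bcl2 was -0.025 with the block and -0.099 to 0.13 with a library left out. Bax was 0.066 with library totals, 0.013 with the block and -0.051 to 0.020. Bcl2l11 was -0.00062 with DESeq2 size factors, -0.00064 in DESeq2, -0.067 with the block and -0.070 to 0.053. Bid was 0.048 with library totals, 0.24 with the block and -0.28 to 0.24. Bcl2l2 was 0.040 and Bcl2l13 0.060 with library totals, and Bcl2l13 0.018 with the block and -0.073 to 0.017. With a library left out the log2 difference was -0.31 to 0.023 for Bcl2l1/Bax and -0.65 to -0.25 for Mcl1/Bak1. Settings for lists of transcription factors, genes outside the members and Mcl1/Pmaip1 were added after seeing the data. Bcl2l14 had no value under the stricter filter or without Igf1r-deleted replicate 3, and DESeq2 gave no adjusted p for Bcl2l14, Bcl2a1a, Bcl2a1d or Bik. Where a library left out leaves 1 control, its spread is assumed to be that of the Igf1r-deleted group.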
